A study of Danio rerio with 96 samples.

Results

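Of the 3183 rows in the count table, 124 had a mean raw count of at least 5000 over the 96 samples, and these 124 most abundant features (3.90% of the rows) are described here. The rows carry no gene or probe names, so each feature is called by its row number, counted from 1, and the meaning of the row order was not given in the sources used here. Members were chosen by mean raw count over all samples, so their share of the counts and their order are descriptions without a test. All 124 passed every filter on low counts used below.

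The samples were whole zebrafish at 120 hours post fertilization, all kept for 5 days in 0.1% dimethyl sulfoxide (DMSO), the solvent used as the vehicle control of chemical exposures. Each sample held 1, 5, 10 or 20 embryos, called pool1, pool5, pool10 and pool20, with 24 samples of each and 864 embryos in all. The study asked which pool sizes suit dose-response work, and its labels give 3 RNA extraction batches of 8 samples to each pool size. Exposures that began on 12 December gave pool5 batches 1, 2 and 3 and pool1 batches 1 and 2, all extracted on 17 December, and one that began on 13 December gave pool1 batch 3 and pool10 batch 3, both extracted on 18 December. Pool10 batches 1 and 2 came from an exposure begun on 2 November and were extracted on 23 and 24 November. The pool20 batches came from an exposure begun on 4 November, with extraction on 23 November for batch 1, 24 November for batch 2 and 15 December for batch 3. The December exposures were extracted 0 days after exposure ended, the November ones 14 to 36 days after, so exposure, time to extraction and batch cannot be told apart in most comparisons. Without feature names, the labelled tissue and stage could not be checked against marker genes.

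In TempO-Seq, a pair of detector oligonucleotides anneals side by side on an RNA, is ligated, amplified and counted, so each feature reports a short stretch of RNA. A count depends on how much of the RNA is present and on how well its probe pair anneals and amplifies, so 2 features with like counts need not have like numbers of RNA molecules. In a whole larva the most abundant messenger RNAs usually come from large tissues such as muscle and skin, from the liver and digestive tract, and from the translation and energy machinery of every cell. In pooled whole animals, fewer cells of a type and less RNA per cell cannot be told apart.

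Total counts ran from 3336312 to 6441627 per sample, with a median of 4498706. In pool1 batch 1, the samples numbered 5 to 8 did not overlap with those numbered 1 to 4 in 6 of the 10 most abundant features and overlapped in the other 4. In pool5 batch 1 they were apart in 4 of the 10, and in each of the other 10 batches in 0 to 2. The share of all rows apart in this way is not given here, so nothing particular to these features can be read from it. Feature 2333 read 19218 to 23573 CPM (counts scaled to library totals of 1000000) in samples 1 to 4 of pool1 batch 1 and 8187 to 14355 CPM in samples 5 to 8. Feature 1408 went the other way in the same samples, from 256 to 822 CPM against 2944 to 6924 CPM. The calls between November days and between single-embryo exposures are given below with and without samples 5 to 8 of the batches numbered 1. Without these samples, 8 results of named features lost their call, only some of which are identified below. The correlations below were not computed without these samples.

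The 124 members held 73.4% of all counts in the pooled table. Their share of a sample was 73.3% ± 2.65 (SD, n = 96), with a lowest value of 67.3% (95% Wilson interval 67.25 to 67.34) in pool10 batch 2, a median of 74.2% and a highest value of 77.4% (77.39 to 77.48) in pool1 batch 3. No sample's interval was wider than 0.0988 percentage points, and it covers counting error only, since reads carry no molecular identifiers. The single most abundant feature held 6.06% of all counts, the first 10 held 26.9%, the first 20 held 40.3% and the first 50 held 59.9%. The 32 most abundant rows reached 50% of all counts. The median member had a mean count of 11563, against 133.9 for the median row of the table. Mean counts fell 55.8-fold from the highest to the lowest member, with 6 members at 100000 or more, 18 at 50000 or more and 52 under 10000.

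**Figure D1:**
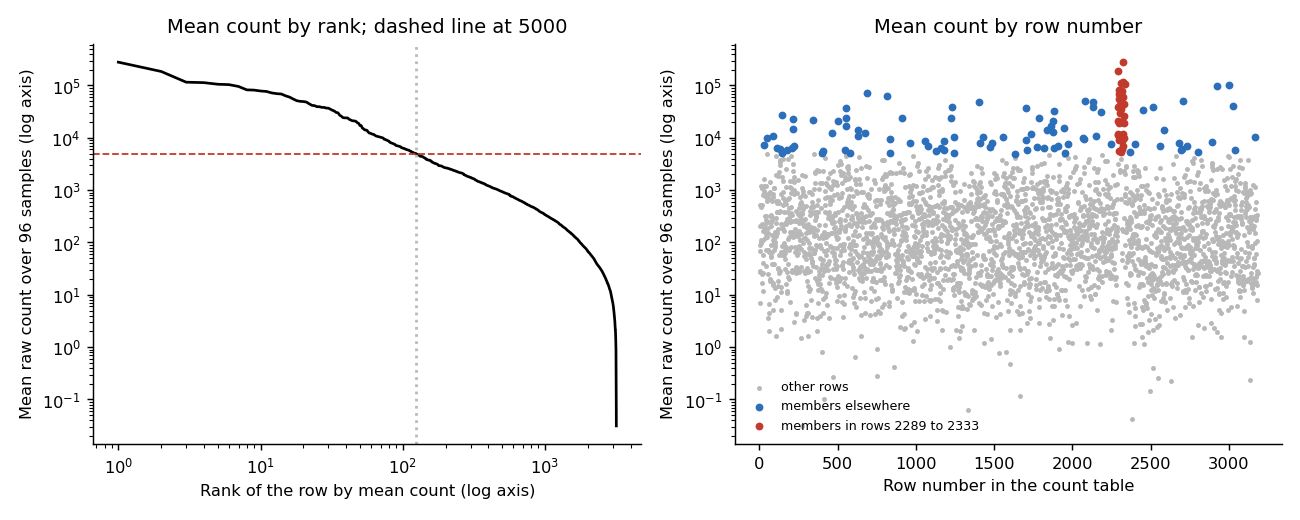
Mean raw count over 96 samples on log axes, by rank (left, with the minimum of 5000 dashed) and by row number (right). The curve falls without a step at 5000, and 33 of the 124 members (red) sit close together between rows 2289 and 2333.

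There was no gap in abundance at the minimum. The 3 members just inside it were feature 398 with a mean count of 5065, feature 836 with 5037 and feature 1632 with 5001. The 3 rows just outside were feature 346 with 4856, feature 393 with 4850 and feature 51 with 4849. Membership was also not the same as a high count in every sample. Only 51 members had 5000 counts or more in all 96 samples, 7 members did so in fewer than 48, and the lowest member count in any sample was 87. From the lowest to the highest sample, CPM differed 4.19-fold for the median member, under 2-fold for 9 members, over 10-fold for 21 and over 100-fold for 3.

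The members were unevenly placed in the table. When members no more than 5 rows apart were joined into chains, the longest chain ran from row 2289 to row 2333 and held 33 members, while the next longest held 4. These 45 rows are 1.41% of the table, and their members made up 26.6% of the members, 51.97% of the members' counts and 8 of the 10 most abundant features. The 12 other rows in that stretch had mean counts from 46.4 to 3958. The chain was found after the values were seen and is used below only to divide the members for description. Its 33 members held 38.1% ± 1.85 of a sample's counts (SD, n = 96) and the 91 other members 35.3% ± 1.58.

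Feature 2323 had the highest count in all 96 samples. Its mean count was 278900, and its share of a sample ran from 4.35% through a median of 6.01% to 8.15%. Feature 2293 followed with a mean count of 185389 and ranked 2 or 3 in every sample. The next in order were feature 2325 with a mean count of 115623, feature 2309 with 113310, feature 2333 with 105626 and feature 2999 with 103806. Features 2926 with 95806, 2297 with 82515, 2304 with 81635 and 2303 with 78459 completed the first 10. Of these, features 2999 and 2926 lay outside the chain.

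Below the first places, the order was less stable. A sample's own 10 highest rows included 5 to 10 of these features, with a median of 8, and all 10 of them in 1 sample. Only 26 rows, all of them members, ever reached a sample's 10 highest. Feature 2309 never ranked below 8, whereas feature 2333 ranked between 3 and 30 and feature 2926 between 3 and 42. Features 2304 and 2303 were each among the 10 highest in 48 of 96 samples. By mean CPM within a pool size, the first 10 rows included 9 of the 10 for pool1, all 10 for pool5, 9 for pool10 and 8 for pool20. Of the 124 rows with the highest mean CPM in a pool size, members were 119 for pool1, 121 for pool5, 119 for pool10 and 117 for pool20.

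**Figure D2:**
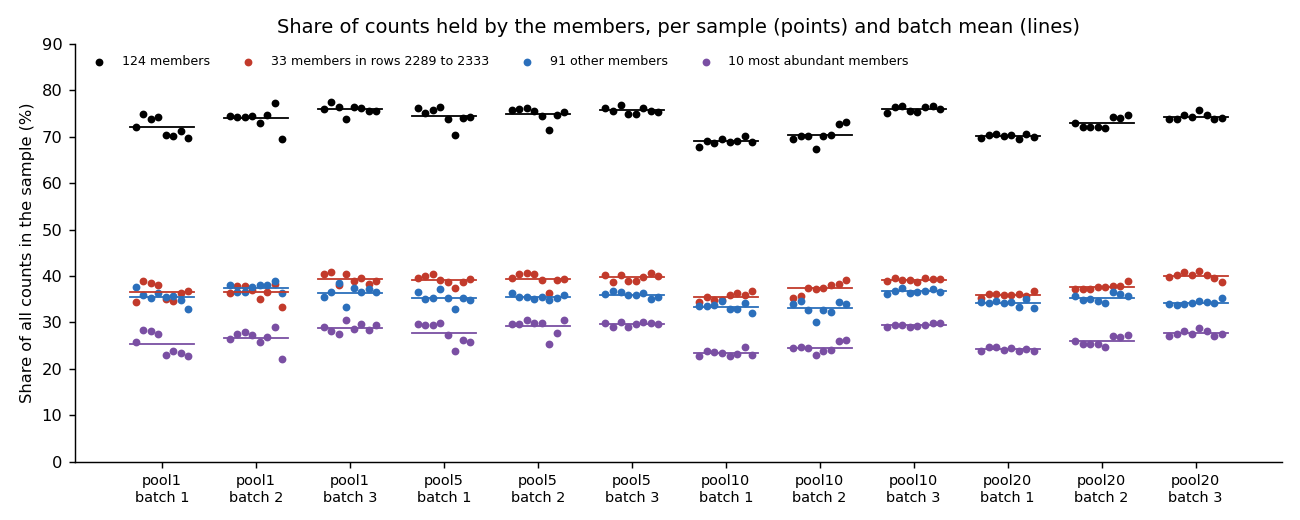
Share of all counts in each of the 96 samples (points) with the mean of each batch (lines), for all 124 members, for the 33 members in rows 2289 to 2333, for the 91 other members and for the 10 most abundant. The batch 3 means of pool10 and pool20, both extracted in December, were 75.98% and 74.4% for all members, above the November batches of the same pool size.

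The members' share of the counts had batch means from 69.003% to 75.98%. Pool1 had a mean of 74.008% ± 2.36 and pool5 of 75.05% ± 1.51, pool10 of 71.8% ± 3.27 and pool20 of 72.5% ± 1.94 (SD over 24 samples). Among batches of 8 the lowest means were 69.003% ± 0.655 in pool10 batch 1, 70.2% ± 0.401 in pool20 batch 1 and 70.4% ± 1.84 in pool10 batch 2. The highest were 75.98% ± 0.610 in pool10 batch 3 and 75.9% ± 1.06 in pool1 batch 3. Within pool10, every sample of batch 3 (75.1% to 76.6%) lay above every sample of batches 1 and 2 (67.3% to 73.2%). Within pool20, batch 1 (69.6% to 70.7%) lay below batches 2 and 3 in every sample, while batch 2 (71.9% to 74.6%) and batch 3 (73.8% to 75.7%) overlapped. The 10 most abundant features alone took 23.4% ± 0.648 of the counts in pool10 batch 1 and 29.4% ± 0.335 in pool10 batch 3.

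Among single embryos, the highest CPM was 2.76 times the lowest for the median member, over 10 times for 14 members and over 100 times for 2. Spread was taken as the within-batch SD of log2 CPM, with scaling by the trimmed mean of M values (TMM, which matches the bulk of features between libraries). In pool1 the median member had an SD of 0.40, the tightest 0.11 and the widest 2.80. For pools of 5, 10 and 20 embryos the median member's SD was 0.30, 0.24 and 0.14. The same medians over the 2198 rows with a mean count of at least 50 were 0.56, 0.39, 0.27 and 0.20, and over the 662 rows with a mean count of 500 to 5000 they were 0.42, 0.32, 0.22 and 0.15. Single batches did not all follow this order. For batches 1, 2 and 3, the median member's SD was 0.43, 0.32 and 0.31 in pool1 and 0.43, 0.23 and 0.09 in pool5. It was 0.15, 0.31 and 0.10 in pool10 and 0.10, 0.17 and 0.12 in pool20. In pool1, 7 members (5.65%) had an SD above 1, against 18.2% of the 2198 rows and 6.50% of the rows with a mean count of 500 to 5000, and 0 members did so in pool20. The median SD in pool1 was 0.34 for members of the chain and 0.43 for the others.

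In each of the 5 widest members, single embryos lay far apart in CPM. Feature 2299 was lowest at 19.8 CPM, with a median of 61.4 and a highest value of 6687 CPM. Below 100 CPM lay 14 of its 24 embryos, at 1000 CPM or more lay 8, and embryos below 100 CPM occurred in all 3 batches. In pools of 20 its lowest, median and highest values were 430, 1681 and 2763 CPM, with no sample near the low level of single embryos.

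Feature 579 ran from 19.7 CPM through a median of 818 to 4802 CPM in single embryos, with 9 of 24 below 100 CPM. Feature 2079 had a lowest value of 746 CPM, a median of 9950 and a highest value of 37301 CPM. Its embryos fell on either side of a wide gap, with none between 1675 and 9550 CPM. Feature 214 ran from 83.7 through 2793 to 7895 CPM and feature 1954 from 26.6 through 859 to 1760 CPM. None of the pool20 values of these features fell under 100 CPM.

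The 5 features were at most moderately correlated with each other. Over the 24 single embryos, with each batch centred, their 10 pairwise Pearson correlations of log2 CPM ran from −0.37 to 0.44, the highest being that of features 2299 and 2079 (Spearman 0.48). Feature 2299 was also the closest partner of feature 2079 among the other 123 members, and in pool5, pool10 and pool20 their r was 0.64, 0.06 and 0.18. These values describe the embryos measured and carry no test.

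The tightest members stayed within a narrow band in every embryo. Feature 627 had an SD of 0.11 and ran from 1920 to 2849 CPM in single embryos, and feature 345 had an SD of 0.12 and ran from 4311 to 5819 CPM. Feature 2293, second in abundance, had an SD of 0.14 (32483 to 49355 CPM), feature 2303 had 0.14 and feature 1771 had 0.14. Feature 345 was the 1 member whose SD was not smaller in pool20 (0.14) than in pool1, and the other 123 had a smaller one there.

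**Figure D3:**
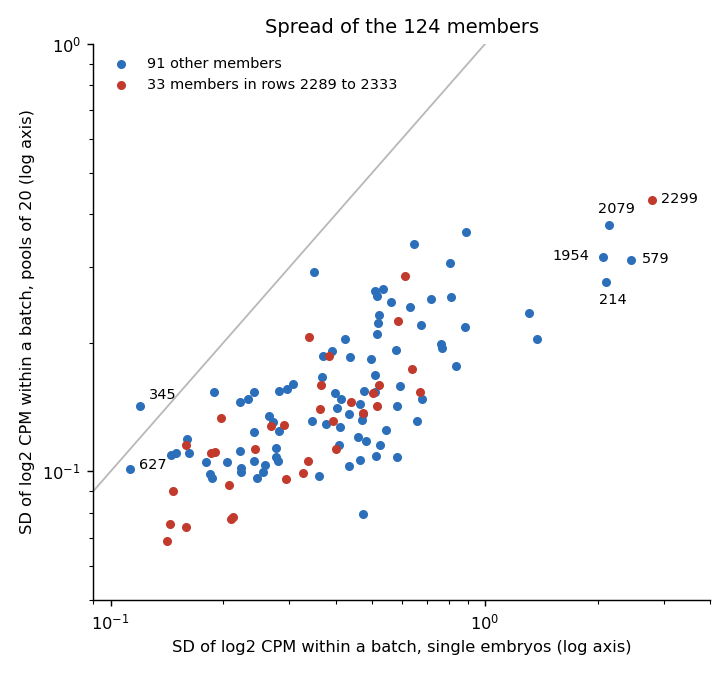
Within-batch SD of log2 CPM for each of the 124 members in single embryos (horizontal log axis) and in pools of 20 (vertical log axis), with the line of equality in grey. Nearly all points lie below the line, and features 2299, 579, 2079, 214 and 1954 lie farthest to the right.

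Spread was lower in pools of 20 than in single embryos for 64 of the 124 members and higher for 0. This was tested with limma on 1 value per batch, the log2 of the within-batch SD, with a Benjamini-Hochberg adjusted p under 0.05 as the threshold for a call. Over all 2198 rows tested, 71.5% were called, all with lower spread, so the members' share of 51.6% was below that background. With rows of mean count 500 or more only, 41 members and 43.9% of rows were called. The median log2 change of the SD was −1.26 over the members and −1.39 over all rows. The largest falls were −3.15 ± 0.45 (SE) for feature 579 (limma adjusted p = 1.58e-04), −3.03 ± 0.42 for feature 214 and −3.002 ± 0.52 for feature 1954. The count depended on the batches kept, running from 26 to 90 when 1 batch was left out. It was 26 without pool20 batch 1, 28 without pool1 batch 1 and 32 without pool20 batch 3. The all-row shares of these fits are not given here, so a change particular to the members cannot be read from them. Pool size and exposure month cannot be told apart in this comparison.

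Within the exposure begun on 13 December, pool10 batch 3 also varied less than pool1 batch 3. Absolute deviations from the batch mean were lower for 72 members (58.1%) and higher for 0 (limma on 16 samples), against 35.4% of the 2198 rows called. With rows of mean count 500 or more only, 52.5% of rows were called, in a separate fit whose member count is not given here. The largest falls of the mean deviation in log2 CPM were −2.26 ± 0.35 for feature 579, −1.51 ± 0.37 for feature 2299 and −1.47 ± 0.38 for feature 1954 (limma adjusted p of 8.6e-05, 0.00583 and 0.00788). Each pool size is 1 batch here, so pool size cannot be told apart from batch.

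Several of the most abundant members rose and fell together from embryo to embryo. For each of the first 10, the most correlated member over the 24 batch-centred single embryos is given as a description, since it was chosen for its correlation among 123. Features 2325 and 2333 had a Pearson r of 0.98 (Spearman 0.95, and 0.97 without the 2 embryos farthest from the median), and in pool5, pool10 and pool20 their r was 0.97, 0.99 and 0.97. Feature 2297 followed feature 2333 with r = 0.97 (Spearman 0.86), and feature 2309 did so with r = 0.87 (Spearman 0.90). Feature 2999 followed feature 2296 at 0.91 (Spearman 0.91) and feature 2926 followed feature 2295 at 0.88 (Spearman 0.78, and 0.75 without 2 embryos).

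Features 2323 and 2309 were joined less closely (r = 0.78, Spearman 0.72), as were features 2293 and 2323 (0.75, Spearman 0.73) and features 2303 and 85 (0.77, Spearman 0.75). Feature 2304 had the weakest partner, feature 2402 at 0.66 (Spearman 0.65, and 0.52 without 2 embryos). Feature 1408 was the member most opposed to feature 2333 (r = −0.92), and feature 2560 to feature 2325 (r = −0.92). The low samples of pool1 batch 1 described above enter these values, which were not computed without all of them. Features 2325, 2333, 2297 and 1408 were among those apart in these samples. All values of a sample share its library total. The median r over pairs of members in pool1 was 0.06, being 0.30 within the chain and 0.04 among the others, and the first principal axis held 28.0% of the members' variance.

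**Figure D4:**
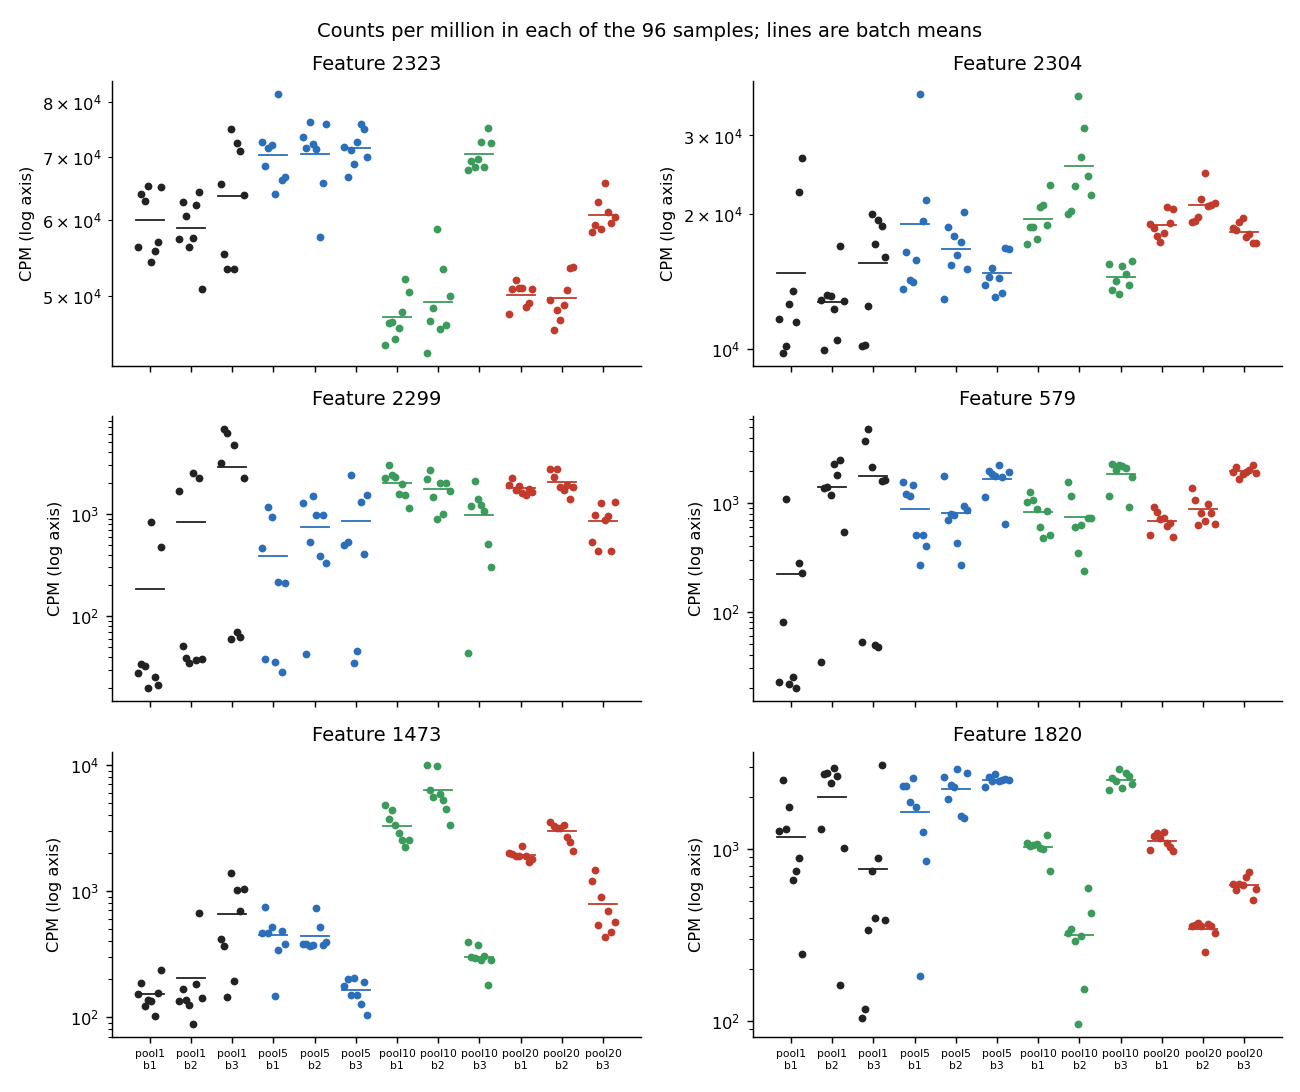
CPM in each of the 96 samples on a log axis, with batch means as lines, for features 2323, 2304, 2299, 579, 1473 and 1820 (b1 to b3 are batches 1 to 3). Features 2299 and 579 spread over 2 orders of magnitude in single embryos, and features 1473 and 1820 step between batches of pool10 and pool20.

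In the comparison over all batches, calls between pool sizes depended on the model and on 1 batch. The 8 samples of a batch were summed, giving 3 sums per pool size. The quasi-likelihood F test of edgeR over the 4 sizes called 0 of 124 members, with 0.0% of the 3159 rows called, although 4 members had an unadjusted p under 0.05 and DESeq2 called 1. Against pool1, edgeR called 0 members in each of pool5, pool10 and pool20 (background 0.0% in each), with 0, 3 and 18 members at an unadjusted p under 0.05, and DESeq2 called 0, 1 and 2. Feature 2323 had batch means of 60058, 58975 and 63692 CPM in pool1, and 70360, 70466 and 71446 CPM in pool5. In the larger pools its batch means were 47469, 49256 and 70425 CPM in pool10, and 50132, 49688 and 60802 CPM in pool20. The pool5 batches were above all others except pool10 batch 3, and the 4 November extractions were the lowest.

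The 0 calls held neither without 1 batch nor with another model. Without pool10 batch 3, the single pool10 batch from a December exposure, edgeR called 49 members over the 4 sizes (24.4% of all rows) and 60 in pool10 against pool1, of which 59 were lower (30.1% of all rows). It then called 16 in pool20 against pool1, all lower (8.37% of all rows). With limma on single samples, fitting each batch as a random effect, 47, 37 and 39 members were called in the same 3 comparisons with all batches kept, against 22.8%, 21.4% and 22.7% of all rows. Without that batch, every pool10 and pool20 sample is from a November exposure and every pool1 and pool5 sample from a December one.

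Within the exposures begun on 12 December, pool5 (3 batch sums) was compared with pool1 (2 batch sums). edgeR called 0 of 124, with 0.0% of 3084 rows called, 7 members at an unadjusted p under 0.05, and DESeq2 called 1. With the batch number as a replicate block, edgeR called 22, 16 higher and 6 lower, against 4.7% of rows, 2.3% higher. Pool5 batch 3 has no pool1 partner in that fit, so the contrast rests on the batches numbered 1 and 2. Batches of the same number were separate extraction batches, and few sums are left to estimate the spread. The median log2 change of the members was 0.07, and −0.02 over all rows tested.

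Within the exposure begun on 13 December, pool10 batch 3 differed from pool1 batch 3 in 14 members, 10 higher and 4 lower (edgeR on 8 against 8 samples). Of all 2567 rows tested, 7.52% were called, 3.74% higher and 3.78% lower. None of the 10 most abundant features was called, and 13 of the 14 lay outside the chain. The 2 batches did not overlap for 9 members, against 2.34% of all rows.

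Feature 1820 showed the largest rise, and its single embryos ran from 105 through a median of 391 to 3099 CPM while the pools ran from 2195 through 2535 to 2910 CPM. The pools lay within the range of the embryos, near its upper end. Its log2 change was 1.76 ± 0.53 (SE, edgeR adjusted p = 0.0490), and the call was lost with scaling to library totals (edgeR adjusted p = 0.0535). Feature 404 rose by 1.16 ± 0.31 on the log2 scale (edgeR adjusted p = 0.0275), its ranges overlapping between batches. Feature 1947 read 1027, 1613 and 2364 CPM (lowest, median, highest) in single embryos and 2871, 3162 and 3235 CPM in pools. Its batches did not overlap, and the log2 change was 0.98 ± 0.13 (edgeR adjusted p = 2.56e-04).

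Feature 467 went down, from 3145, 3977 and 5426 CPM in single embryos to 1809, 2334 and 2756 CPM in pools. Every pool was below every embryo, with a log2 change of −0.82 ± 0.12 (edgeR adjusted p = 5.16e-04). Features 503 (−0.48 ± 0.11) and 914 (−0.46 ± 0.09) were the next largest falls. With 1 batch on each side, these differences cannot be told apart from a difference between extraction batches.

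In pool10, the December exposure differed from the November exposure in most members. edgeR called 115 of 124, 105 higher and 10 lower in December (batch 3 against the mean of batches 1 and 2, 24 samples), against 78.3% of the 3045 rows tested, 36.4% higher and 41.8% lower. Exposure, time to extraction and batch cannot be told apart here. Single samples are the replicates, so the calls do not weigh the spread between batches. The direction of many members depended on the scaling. With library totals in place of TMM, 104 members were called, 62 higher and 42 lower, against 85.3% of all rows, 13.5% higher. The median log2 change of the members was 0.86 with TMM and 0.12 with library totals, while that of all rows moved from −0.10 to −0.85. Relative to the all-row median, the median member was 0.96 higher with TMM and 0.98 higher with library totals, and 112 of 124 members lay above that median with either, as did 48.3% of the other rows.

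The 2 exposures did not overlap in CPM for 56 of the 124 members, near the background of 1272 of 3045 rows (41.8%). Of the 56 members, 38 were higher and 18 lower in December. Feature 2130 read 12769, 15388 and 17149 CPM (lowest, median, highest) in December and 2799, 4145 and 5766 CPM in November. Its log2 change was 2.61 ± 0.12 with TMM (edgeR adjusted p = 4.03e-18) and 1.88 with library totals. Feature 1820 rose by 2.87 ± 0.19 and feature 146 by 2.77 ± 0.10 on the log2 scale with TMM, and neither overlapped between exposures. Feature 146 had a mean count of 5206, just above the minimum for members. Its high December values enter that mean, so its membership is not independent of this test.

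Feature 1473 was the largest fall, at 179, 298 and 392 CPM in December against 2211, 4435 and 10056 CPM in November. The groups lay far apart, with a log2 change of −3.15 ± 0.16 with TMM (edgeR adjusted p = 3.92e-17) and −3.93 with library totals. Feature 1473 reached the minimum count for members in only 36 samples, and it ranked 326 in pool1 and 307 in pool5. The high November values that made it a member enter this test, so its membership is not independent of the fall. Feature 1408 (−2.05 ± 0.18) and feature 2588 (−1.46 ± 0.11) also fell without overlap.

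Among the 10 most abundant, feature 2323 read 67878 to 75038 CPM in December and 43519 to 58819 CPM in November. These ranges did not overlap, and the log2 change was 1.29 ± 0.08 with TMM (edgeR adjusted p = 1.02e-14) and 0.54 with library totals. With TMM 9 of the 10 were called, all higher. Feature 2304 was the exception, at 0.12 ± 0.10 with TMM (edgeR adjusted p = 0.256) and −0.62 with library totals (edgeR adjusted p = 2.63e-07). Its mean was 14521 CPM in pool10 batch 3 and 19546 and 25590 CPM in batches 1 and 2.

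**Figure D5:**
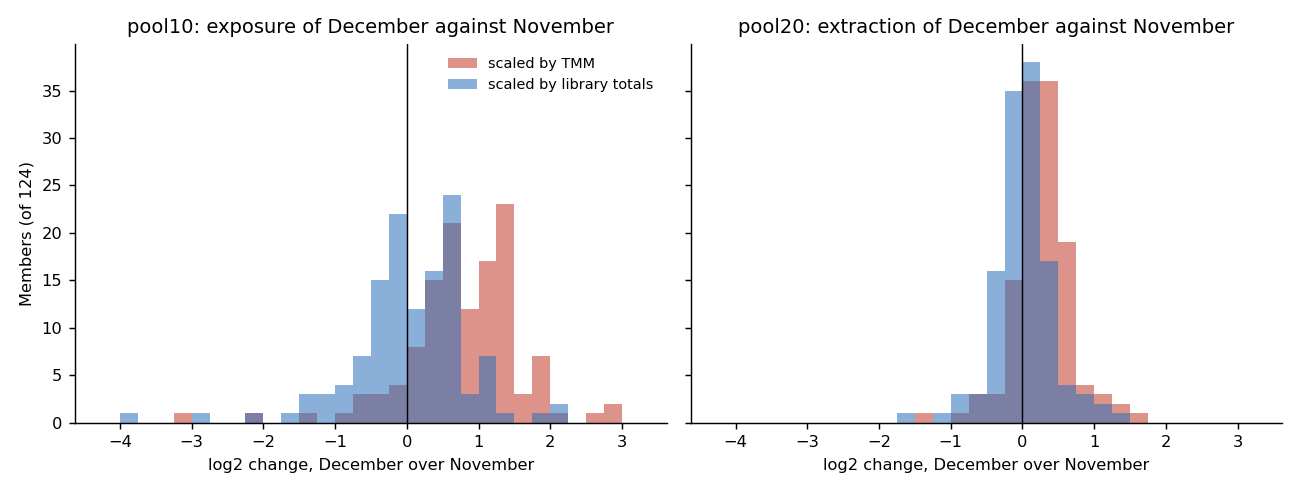
Number of members by log2 change, December over November, for the pool10 exposures (left) and the pool20 extractions (right), with TMM (red) and with library totals (blue). The distribution lies farther left under library totals, the median going from 0.86 to 0.12 in pool10.

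In pool20, all from 1 exposure, the December extraction differed from the November extractions in 98 members. Of these, 87 were higher and 11 lower (edgeR, 24 samples), against 60.1% of the 3039 rows tested, 28.2% higher and 31.9% lower. Extraction date, time to extraction and batch cannot be told apart here, and single samples are again the replicates. With library totals 85 were called, 44 higher and 41 lower, against 68.5% of all rows, 12.0% higher. The members' median log2 change was 0.27 with TMM and 0.01 with library totals, and relative to the all-row median it was 0.31 with either. The extractions did not overlap for 29 members, against 9.74% of all rows.

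Feature 579 read 1679, 1938 and 2260 CPM (lowest, median, highest) after the December extraction and 489, 721 and 1395 CPM after the November ones. The ranges did not overlap, and the log2 change was 1.61 ± 0.11 (edgeR adjusted p = 2.73e-14). Feature 2130 rose by 1.45 ± 0.08 on the log2 scale, also without overlap, and feature 398 by 1.36 ± 0.12, with overlap. Features 579 and 398 had mean counts of 5213 and 5065, just above the minimum for members. The high December values tested here enter those means, so their membership is not independent of this test. Feature 1473 went from 1705, 2189 and 3553 CPM in November to 428, 634 and 1466 CPM in December. It did not overlap, with a log2 change of −1.36 ± 0.14 (edgeR adjusted p = 4.36e-10). As in pool10, the November values that made feature 1473 a member enter this test. Feature 2299 fell by 0.90 ± 0.15 and feature 2079 by 0.67 ± 0.14 on the log2 scale.

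Of the 10 most abundant, 9 were called higher in pool20 with TMM, among them feature 2323 (0.55 ± 0.06, edgeR adjusted p = 8.63e-10) without overlap. With library totals, features 2304 and 2926 had the opposite sign, at −0.12 and −0.19 (edgeR adjusted p = 0.0105 and 0.0128). Feature 2926 was not called with TMM (0.07 ± 0.08, edgeR adjusted p = 0.481).

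Between the extractions of 23 and 24 November, most of the called members lay outside the chain. In a joint fit of 32 samples, edgeR called 77 members in pool10, 12 higher and 65 lower on 24 November, against 52.2% of the 3086 rows tested, 25.3% higher and 26.9% lower. They were 13 of the 33 members of the chain and 64 of the 91 others. In pool20 edgeR called 47 (37.9%), 17 higher and 30 lower, near the 37.4% of rows called, 19.5% higher and 17.8% lower. These were 3 members of the chain and 44 others. The members whose CPM did not overlap between days numbered 21 in pool10 (against 8.0% of all rows) and 42 in pool20 (against 12.8% of all rows). Without samples 5 to 8 of the batches numbered 1, the counts were 49 members against 30.3% of all rows in pool10 and 26 members against 24.5% in pool20. Within a pool size, day and batch cannot be told apart.

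Of these calls, 40 members were called in both pool sizes, all in the same direction, 30 lower and 10 higher. They were 51.9% of the pool10 calls and 85.1% of the pool20 calls. Over all rows tested, 924 were called in both, 923 of them in the same direction, which was 57.4% of the pool10 calls and 80.1% of the pool20 calls. The change between days was not shown to differ between pool sizes, since the interaction in edgeR called 0 members (28 at an unadjusted p under 0.05, background 0.0648%, 0.0324% in each direction) and DESeq2 also called 0.

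Feature 1820 fell most in both. In pool10 it read 749, 1046 and 1215 CPM (lowest, median, highest) on 23 November and 96.7, 320 and 592 CPM on 24 November, and in pool20 it read 971, 1126 and 1251 CPM against 251, 358 and 372 CPM. Neither pool size overlapped between days, with log2 changes of −1.79 ± 0.22 (edgeR adjusted p = 4.21e-08) and −1.68 ± 0.22 (edgeR adjusted p = 2.41e-07). Features 146 (−0.98 ± 0.13) and 2682 (−0.97 ± 0.19) followed in pool10, and features 132 (−0.75 ± 0.13) and 1427 (−0.67 ± 0.12) in pool20.

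Feature 1954 rose in both, by 0.65 ± 0.18 in pool10 and 0.88 ± 0.18 in pool20 on the log2 scale. It had a mean count of 5113, just above the minimum for members. Its higher values of 24 November enter that mean, so its membership is not independent of these tests. The other largest rises were features 1473 (0.77 ± 0.13) and 2131 (0.68 ± 0.10) in pool10 and features 3165 (0.76 ± 0.16) and 686 (0.68 ± 0.14) in pool20. Feature 686 read 13799, 14925 and 16370 CPM on 23 November and 21772, 23639 and 25398 CPM on 24 November in pool20, with no overlap. Feature 2293 was 1.20 times as high in CPM on 24 November in both pool sizes, without overlap. It was called in pool20 (0.28 ± 0.07, edgeR adjusted p = 0.00142) and not in pool10 with TMM (0.12 ± 0.07, edgeR adjusted p = 0.138), where library totals gave 0.27 (edgeR adjusted p = 3.91e-05).

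In single embryos, the exposures begun on 13 and 12 December differed in 20 members, 14 higher and 6 lower on 13 December. This was edgeR on 24 samples, against 8.69% of the 2692 rows tested, 4.23% higher and 4.46% lower. Exposure, extraction date and batch cannot be told apart in it. With library totals the split was 9 higher and 14 lower, against 307 of the 2692 rows, 72 higher and 235 lower. Without samples 5 to 8 of batch 1 the count was 6, against 2.33% of all rows. Feature 2299 read 60.7, 2711 and 6687 CPM (lowest, median, highest) on 13 December and 19.8, 37.7 and 2521 CPM on 12 December. The exposures overlapped over most of that range, with a log2 change of 3.10 ± 0.94 (edgeR adjusted p = 0.0413). Features 1473 (2.00 ± 0.35) and 2327 (0.95 ± 0.26) also rose. Features 1881 (−1.14 ± 0.31), 404 (−1.03 ± 0.31) and 554 (−1.01 ± 0.22) fell. Of these, features 2327, 1881, 404 and 554 were not called without those 4 samples (edgeR adjusted p = 0.138, 0.175, 0.172 and 0.0517).

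The second most abundant member, feature 2293, read 38815, 43861 and 49355 CPM on 13 December and 32483, 35673 and 40655 CPM on 12 December. The ranges overlapped slightly, with a log2 change of 0.43 ± 0.08 (edgeR adjusted p = 0.00259).

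Even within 1 exposure and 1 extraction day, the 3 pool5 batches differed in 22 members (edgeR F test, 24 samples). This was 17.7% of the members, close to the 14.2% of the 2733 rows tested. Feature 1473 had the smallest p (edgeR adjusted p = 0.00323), with batch medians of 465, 380 and 163 CPM. Feature 2291 had medians of 2261, 2323 and 3029 CPM (edgeR adjusted p = 0.00648) and feature 2308 of 7677, 7083 and 9856 CPM (edgeR adjusted p = 0.0143). The batch 3 median was the lowest in feature 1473 and the highest in features 2291 and 2308, with sample ranges that overlapped between some batches.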

How the data were processed

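Whole-embryo RNA of 96 samples was measured with a TempO-Seq zebrafish panel. The authors deposited raw counts per feature as whole numbers, without normalization. The submitters' processing notes list DESeq2 1.31.15, RSEM 1.3.3, STAR 2.7.10a, fastp 0.23.2 and bcl2fastq 2.20. Which build, annotation or counting step was used was not given in the sources used here. All 96 columns were used, no 2 were identical, and 6 rows were 0 throughout. Total counts per sample bound the precision and are given above.

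Groups follow the labels. Levels are CPM on library totals. Counts were tested with edgeR 4.0.16 in R 4.3.3 (filterByExpr, TMM, quasi-likelihood, Benjamini-Hochberg adjustment over all rows tested, threshold 0.05) and spread with limma 3.58.1 on log2 CPM (prior count 2). No label ties samples to separate dishes or parents, so the p-values reflect only spread among these samples, possibly technical. Features were named by rule: the 10 most abundant, those beside the minimum, the 3 largest calls each way per comparison, the 5 widest and 5 tightest, and the closest partner of each of the 10. The chain of rows, the members most opposed to others and feature 1408 were picked after values were seen. Members, lists and tests were chosen with earlier results of these data known. The scripts were tested on simulated counts. Alternatives were DESeq2 1.42.0, its size factors, library totals, no filter, leaving out batches or samples, replicate blocks and a random batch effect.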

Additional observations from a re-analysis of the deposited data

Results flagged for a closer look

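For the member share and the 10 most abundant features, the highest or lowest of the 8 samples of a batch was compared with the other 7. Its gap to the nearest, divided by the range of the 8, passed Dixon's 95% critical value in 15 of 132 such groups (11.4%). That value marks about 1 in 20 groups by its definition, a rate not measured here, and the groups are not independent because samples and totals are shared. The reason for these values was not tested.

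Most of them came from a pair of samples. Sample 6 of pool5 batch 1 was low in member share at 70.4% (95% Wilson interval 70.33 to 70.40, counting error only; others 73.9% to 76.4%). It was also low in feature 2309 at 18685 CPM, feature 2333 at 5308 CPM (others 16723 to 25845), feature 2999 at 11450 CPM and feature 2297 at 4405 CPM, and high in feature 2304 at 37133 CPM (others 13629 to 21538). Sample 8 of pool1 batch 2, a single embryo, was low in feature 2325 at 20300 CPM (others 28291 to 33584), feature 2333 at 14316 CPM, feature 2999 at 13415 CPM and feature 2297 at 13369 CPM.

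The others were single values. Sample 7 of pool1 batch 2 was high in feature 2304 at 16972 CPM, as was sample 5 of pool20 batch 2 at 24743 CPM. Sample 6 of pool5 batch 2 was low in member share at 71.4% (95% Wilson interval 71.34 to 71.41; others 74.5% to 76.1%). Feature 2325 was low in sample 2 of pool5 batch 3 at 29385 CPM and in sample 1 of pool10 batch 3 at 28934 CPM.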

How the results depend on the processing

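For the features named, 1718 of 1794 values under an alternative kept their direction and their side of the threshold, 28 lost a call, 45 gained one and 3 reversed. The reversals came with library totals in place of TMM, for feature 2304 in December against November in pool10 (−0.62) and pool20 (−0.12) and feature 2926 in pool20 (−0.19). Of member counts over pool sizes, DESeq2 gave 1 over the 4 sizes, 1 for pool10 and 2 for pool20, and the random batch effect 47, 37 and 39. Leaving out a batch gave 0 to 49 over the 4 sizes, 0 to 60 for pool10, 0 to 16 for pool20 and 0 to 0 for pool5, with the exposure month as a covariate (chosen after seeing the data) at 0 in all. For pool5 against pool1 of 12 December, DESeq2 gave 1 and leaving out a batch 0 to 0. The lower-spread count of 64 was 41 with a minimum mean count of 500 (against 43.9% of rows), 102 on absolute deviations and 26 to 90 without a batch. The all-row shares for absolute deviations and for leaving out a batch are not given here. Without samples 5 to 8 of the batches numbered 1, the calls between November days were 49 and 26, and those between single-embryo exposures 6. A minimum of 10000 gave 72 members with 65.7% of the counts. The cause was not tested.

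Replicate numbers were not used as pairs, since that needed every same-number pair to correlate over 0.1. Same-number batch sums correlated from −0.38 to 0.80 (median 0.24, 13 of 18 over 0.1), different-number ones with a median of −0.15 (10 of 36 over 0.1), a hint of pairing from the data and not the design. For pool1 and pool10 batch 3, 3 of 8 same-number samples exceeded 0.1 against 1 of 56 others, and 6 of 8 correlated best with their own number. For batches 1 and 2 of pool10 and of pool20 the own number was best in 2 and 1 of 8. With the batch number as a replicate block, 22 members were called in pool5 against pool1 of 12 December, 16 higher and 6 lower (4.7% of rows). As stated above, that contrast rests on the batches numbered 1 and 2. The block gave 0 calls over the 4 pool sizes.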
